A study of Mus musculus with 14 samples.

Results

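The DNA replication and mitosis genes described here are 49 genes that copy the genome and divide the cell. They were taken by symbol from a list of known S-phase and mitotic genes, not by their values, although earlier results of these data were known. They are 49 of the 23331 genes in the deposited count table. All 49 passed the expression filter (at least 1 CPM, the count scaled to library size, in 3 or more of the 14 libraries), as did 13896 genes in all. By textbook role, 22 act in or before S phase, when DNA is copied, and 27 act in mitosis, when the copies are separated, or drive the genes that do.

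RNA was sequenced from bone marrow stromal cells of adult C57Bl/6 mice that carry the irtTA-GBD*-TAg transgene, which expresses the viral large T antigen under induction by dexamethasone and doxycycline (1 µg/ml). The study asked what sets apart clones that can form bone, fat and cartilage from clones with fewer fates. All libraries, whatever their group, carry the transgene and were grown with both inducers and then for 3 days without them. No library of cells without the transgene, or of cells still under induction, was analysed here. The groups are OAC, tripotent for the osteogenic, adipogenic and chondrogenic lineages (3 libraries), OA, osteogenic and adipogenic (3 libraries), O, osteogenic alone (3 libraries), and A, adipogenic alone (3 libraries). The osteo-chondrogenic OC3 and the adipo-chondrogenic AC3 are 1 library each. Libraries numbered 1 and 2 are each a single clone, from different mice, and those numbered 3 are pools of several other clones of these mice. A single-clone value is therefore that of 1 clone, and the tests weigh differences against the scatter among such clones and pools.

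Cells prepare to copy DNA when Cdc6 and Cdt1 load the ring-shaped MCM helicase onto replication origins, and Cdc45 and the GINS complex then switch the helicase on. The genes for these proteins are turned on by E2F transcription factors, which the retinoblastoma protein RB restrains. Mitotic genes are turned on later by B-MYB (Mybl2) and Foxm1 with the MuvB complex, which binds a promoter element called CHR, often near CCAAT boxes bound by NF-Y. Large T antigen binds RB and p53, the activator of the cell-cycle inhibitor Cdkn1a, and so drives cells through the cycle while it is induced.

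The promoters of many members, but not all, hold matches to these elements. Of those that do, 5 are printed to show what the motifs look like at genes that the values below turn on. Capitals mark matches on either strand, so that reverse complements are in capitals too, and overlapping matches run together. An E2F match was any of the form TTCCCGC, the form TTCGCGC, the form TTGGCGC and the form TTGCCGC. A CHR match was the form TTTGAA or else the form TTCGAA, and the last motif was CCAAT. Each window runs from 250 bases before to 50 bases after the gene start, on the gene's own strand, from RefSeq on build GRCm38.p6. Mcm5 (chr8:75109259-75109558, plus strand) and Mcm6 (chr1:128359656-128359955, minus strand), both helicase subunits, hold E2F matches and no CHR. Plk1 (chr7:122159185-122159484, plus strand), a mitotic kinase, and Ccnb2 (chr9:70421505-70421804, minus strand), a mitotic cyclin, hold CHR and CCAAT and no E2F match. Mki67 (chr7:135716330-135716629, minus strand), which coats mitotic chromosomes, holds all 3.
Mcm5: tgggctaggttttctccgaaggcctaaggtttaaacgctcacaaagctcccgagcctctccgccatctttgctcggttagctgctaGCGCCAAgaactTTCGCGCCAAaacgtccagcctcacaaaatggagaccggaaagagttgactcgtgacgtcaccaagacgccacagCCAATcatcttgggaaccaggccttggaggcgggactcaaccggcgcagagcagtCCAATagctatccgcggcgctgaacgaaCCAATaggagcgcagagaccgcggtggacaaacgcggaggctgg
Mcm6: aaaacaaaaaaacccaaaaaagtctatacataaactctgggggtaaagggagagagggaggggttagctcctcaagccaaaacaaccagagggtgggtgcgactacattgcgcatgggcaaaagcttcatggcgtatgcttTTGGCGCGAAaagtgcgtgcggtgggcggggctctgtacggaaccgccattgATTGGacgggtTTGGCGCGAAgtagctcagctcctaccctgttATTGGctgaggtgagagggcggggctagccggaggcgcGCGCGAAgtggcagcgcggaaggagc
Plk1: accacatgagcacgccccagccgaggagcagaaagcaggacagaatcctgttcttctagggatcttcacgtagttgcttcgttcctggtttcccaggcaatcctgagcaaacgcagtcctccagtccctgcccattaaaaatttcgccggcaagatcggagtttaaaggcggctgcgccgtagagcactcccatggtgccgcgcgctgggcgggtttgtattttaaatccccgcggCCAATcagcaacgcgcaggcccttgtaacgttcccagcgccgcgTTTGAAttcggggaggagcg
Ccnb2: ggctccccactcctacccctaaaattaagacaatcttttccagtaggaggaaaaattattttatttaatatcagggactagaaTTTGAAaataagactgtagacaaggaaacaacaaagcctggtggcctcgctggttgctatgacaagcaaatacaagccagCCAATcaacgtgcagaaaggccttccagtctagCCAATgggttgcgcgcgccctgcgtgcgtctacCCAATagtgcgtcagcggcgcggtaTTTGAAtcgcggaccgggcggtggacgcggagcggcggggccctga
Mki67: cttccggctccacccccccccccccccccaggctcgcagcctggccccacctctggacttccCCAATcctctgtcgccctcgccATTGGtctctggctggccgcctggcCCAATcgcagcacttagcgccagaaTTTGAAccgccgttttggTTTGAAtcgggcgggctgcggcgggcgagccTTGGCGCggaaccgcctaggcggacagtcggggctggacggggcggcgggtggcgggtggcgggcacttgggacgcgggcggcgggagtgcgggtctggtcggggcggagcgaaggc

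A window was at hand for 39 members, 18 S-phase and 21 mitotic. An E2F form was found in 12 of the 18 S-phase windows (66.7%) and in 3 of the 21 mitotic windows (14.3%), against 17.4% of 8949 tested genes with a window and 9.69% of all 27025 genes with one. CHR showed the opposite split, in 4 S-phase windows (22.2%) and 15 mitotic windows (71.4%), against 13.2% of tested genes and 19.4% of all genes. CCAAT was found in 12 S-phase windows (66.7%) and 17 mitotic windows (81%), against 39% of tested genes. All 15 mitotic windows with CHR also held CCAAT, a pair found in 5.65% of tested genes. E2f1, Mybl2, Ccne1, Tyms, Birc5, Mad2l1 and Nusap1 held none of the 3 in these windows, which says only that those letters are not there. A match is a description of the letters and not a bound site.

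**Figure D1:**
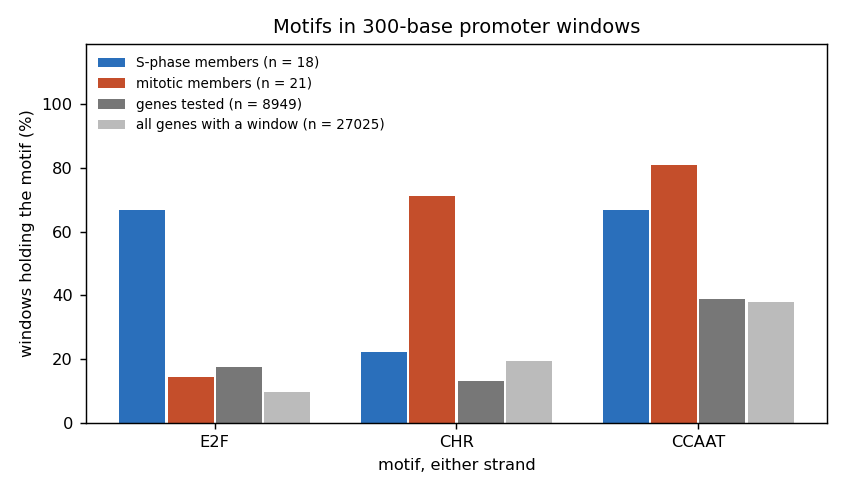
Percent of promoter windows (y axis) that hold an E2F, CHR or CCAAT match on either strand (x axis), for 18 S-phase members, 21 mitotic members, 8949 tested genes and 27025 genes with a window. E2F matches stand at 66.7% in S-phase members and 14.3% in mitotic members, and CHR matches at 22.2% and 71.4%.

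The libraries held 16888190 (OAC2) to 26076539 (OC3) counts. O1 and OA2 stood apart from the others. Across 13409 tested genes with a GC value, the log2 deviation of a gene from its own mean over the 14 libraries followed GC content with a Spearman rho of 0.65 in OA2 and 0.51 in O1, 0.34 in OAC1 and OAC2, and -0.54 to -0.42 in OAC3, OA3, O2, O3, OC3 and AC3. A GC offset, where it is named, removes each library's trend on GC content. Of 12 stromal markers, 9 were at 1 CPM or more in every library, with Col1a1 and Cxcl12 high, while Thy1 was at 0 to 0.107 CPM and Lepr at 0 to 2.73 CPM. Of 6 blood cell markers, Ptprc, Itgam and Hba-a1 did not pass 0.127 CPM in any library, while Cd68 was at 1.7 to 13.8 CPM, Csf1r at 0.525 to 4.96 CPM and Lyz2 at 0.246 to 37.2 CPM. Clones that cycle less and clones with less of these RNAs per cell cannot be told apart in bulk RNA.

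The MCM helicase genes were among the most abundant members per length. By median RPKM, which is CPM divided by exonic length in kilobases, over the 14 libraries, Mcm2 led all 49 members at 89.5, followed by Mcm6 at 69.0, Mcm3 at 65.6 and Mcm4 at 56.2, while Mcm5 stood at 38.4 and Mcm7 at 35.4. Ttk, a spindle checkpoint kinase, was the lowest member at 1.65 RPKM. By RPKM, Mcm2 was the highest of the 6 subunits in all 14 libraries, although the proteins assemble in equal numbers. The RPKM ratio of the highest to the lowest subunit ran from 1.98 in A1 to 4.27 in O1. This order rests on the annotated lengths. In CPM, Mcm6 lay above Mcm2 in OAC3, O2, O3, A2, A3, OC3 and AC3.

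In the sentences that follow, the 3 values of a group are those of its libraries 1, 2 and 3, so that the third is the pool. Mcm2 had 274, 378 and 333 CPM in OAC, 394, 303 and 275 CPM in OA, 111, 343 and 264 CPM in O, 394, 301 and 319 CPM in A, 254 CPM in OC3 and 215 CPM in AC3. Mcm5 had 105, 173 and 155 CPM in OAC, 244, 134 and 134 CPM in OA, 27.03, 169 and 115 CPM in O, 219, 132 and 163 CPM in A, 131 CPM in OC3 and 98.1 CPM in AC3. O1 lay below the other 13 libraries for both genes. Mcm3, Mcm4 and Mcm6 were also lowest in O1, at 45.9, 72.5 and 54.6 CPM, whereas Mcm7 had its lowest value, 76.7 CPM, in AC3, with 80.9 CPM in O1.

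The licensing and firing factors did not vary alike. The SD of log2 CPM was 1.19 for Cdc6 and 0.975 for Gins1, above the 0.465 to 0.749 of the MCM genes. It was 0.453 for Cdt1, 0.398 for Cdc45 and 0.363 for Gins2, below that range. Cdc6, which loads the helicase, had 11.9, 13 and 16.7 CPM in OAC, 25.9, 14.5 and 11.7 CPM in OA, 0.827, 22.5 and 14.8 CPM in O, 26.5, 13.6 and 18.1 CPM in A, 19.7 CPM in OC3 and 9.67 CPM in AC3. Its O1 value stood far below the next lowest, 9.67 CPM in AC3. Cdt1, its partner, had 59.7, 78.9 and 66.2 CPM in OAC, 74.5, 63.6 and 61.5 CPM in OA, 25.6, 65.6 and 56.4 CPM in O, 94.2, 85.9 and 74.1 CPM in A, 56.9 CPM in OC3 and 47.3 CPM in AC3. All 3 O libraries lay below all 3 A libraries for Cdt1. Of the factors that activate the helicase, Cdc45 spanned 14.9 CPM in O1 to 41.8 CPM in OA1, Gins1 0.6996 CPM in O1 to 10.8 CPM in OA1, and Gins2 28.8 CPM in O1 to 66.4 CPM in A1.

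Among the genes of DNA synthesis, Pcna, the sliding clamp of the polymerases, had 95.05, 89.1 and 127 CPM in OAC, 138, 62.9 and 79.8 CPM in OA, 30.9, 115 and 79.8 CPM in O, 156, 106 and 85.97 CPM in A, 98.4 CPM in OC3 and 83.4 CPM in AC3. Rrm2, the regulated subunit of ribonucleotide reductase, which makes the building blocks of DNA, had 79.9, 84.3 and 129.5 CPM in OAC, 112, 133 and 152 CPM in OA, 19.8, 132 and 85.7 CPM in O, 148, 102 and 126 CPM in A, 92.2 CPM in OC3 and 91.2 CPM in AC3. Both were lowest in O1, and Rrm2 was lower in OAC1 and OAC2 than in any OA library. Rrm1, the other subunit, and Rfc4, a clamp loader, were among the 3 members with the lowest SD of log2 CPM, at 0.284 and 0.243. Rrm1 spanned 158 CPM in AC3 to 294 CPM in OAC2, and Rfc4 spanned 12.7 CPM in O1 to 22.5 CPM in OC3. Tyms, which makes thymidylate, spanned 13.7 CPM in O1 to 66.01 CPM in A1, and the primase subunit Prim1 spanned 10.5 CPM in O1 to 94.9 CPM in O2. Pola1, the catalytic subunit of the polymerase that starts each new strand, behaved differently from Prim1. It had 5.25, 4.71 and 74.5 CPM in OAC, 52.96, 0.482 and 44.8 CPM in OA, 0.509, 85.2 and 46.5 CPM in O, 33.6, 30.3 and 28.6 CPM in A, 76.6 CPM in OC3 and 64.3 CPM in AC3, so that OAC1, OAC2, OA2 and O1 stood apart below the other 10 libraries.

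The transcription factors of the cycle set O1 and OA1 apart in opposite directions. E2f1, an activator of S-phase genes, had 55.3, 49.995 and 51.2 CPM in OAC, 109.9, 59.9 and 34.9 CPM in OA, 25.7, 44.8 and 48.1 CPM in O, 65.9, 59.8 and 52.8 CPM in A, 48.2 CPM in OC3 and 42.8 CPM in AC3. E2f8, a repressor that E2F factors induce, had 10.98, 11.9 and 15.8 CPM in OAC, 26.9, 14.5 and 8.601 CPM in OA, 0.572, 10.1 and 6.74 CPM in O, 18.2, 10.8 and 13.3 CPM in A, 12.2 CPM in OC3 and 8.36 CPM in AC3. OA1 was the highest library for both, O1 the lowest, and O3 the next lowest for E2f8. Mybl2 had 8.82, 7.097 and 9.82 CPM in OAC, 41.1, 12.3 and 8.02 CPM in OA, 0.636, 9.24 and 6.71 CPM in O, 12.6, 7.29 and 9.53 CPM in A, 9.81 CPM in OC3 and 6.58 CPM in AC3. The OA1 value of Mybl2 compares with at most 12.6 CPM in the other 13 libraries, and the O1 value rests on 10 reads (0.305 to 1.17 CPM, exact Poisson 95% interval, counting error only). Foxm1, the forkhead factor of mitotic genes, had 44.7, 55.6 and 57.5 CPM in OAC, 93, 59.2 and 44.8 CPM in OA, 8.97, 50.1 and 36.1 CPM in O, 61.9, 36.8 and 42.3 CPM in A, 42.4 CPM in OC3 and 48.3 CPM in AC3, and OA1 was again highest and O1 lowest.

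The E-type cyclins, which with Cdk2 start S phase, did not vary alike. Ccne1 had 18.2, 18.5 and 19.6 CPM in OAC, 25.3, 22.9 and 20.9 CPM in OA, 11.3, 19.9 and 18.7 CPM in O, 34.1, 18.1 and 21.01 CPM in A, 21.2 CPM in OC3 and 15.1 CPM in AC3. Its SD of log2 CPM, 0.356, was the third lowest among the members. Ccne2 had 0.661, 0.502 and 29.04 CPM in OAC, 6.96, 0.321 and 11.1 CPM in OA, 0, 24.6 and 13.2 CPM in O, 7.02, 3.85 and 9.65 CPM in A, 25.4 CPM in OC3 and 13.2 CPM in AC3, with an SD of 2.60. No read of Ccne2 was counted in O1, where 3 counts, the limit that a count of 0 allows, come to 0.191 CPM.

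Of the mitotic cyclins and their kinase, Ccna2, which acts from S phase into mitosis, had 37.8, 37.6 and 55 CPM in OAC, 82.8, 17.03 and 34.4 CPM in OA, 2.67, 62.4 and 29.9 CPM in O, 40.1, 19.9 and 35.5 CPM in A, 55.02 CPM in OC3 and 45.5 CPM in AC3. Ccnb1, the cyclin that takes cells into mitosis, had 16.4, 14.3 and 24.3 CPM in OAC, 28.3, 9.91 and 15.1 CPM in OA, 1.27, 19.7 and 16.1 CPM in O, 19.4, 8.38 and 17.9 CPM in A, 20.3 CPM in OC3 and 15.5 CPM in AC3. Cdk1, the kinase both cyclins activate, had 45.5, 35.4 and 61.7 CPM in OAC, 62.1, 31.01 and 46.05 CPM in OA, 17.9, 71.2 and 48.97 CPM in O, 70.9, 29.5 and 55.6 CPM in A, 50.2 CPM in OC3 and 48.3 CPM in AC3. All 3 were lowest in O1, and Cdk1 least deeply so. Ccnb2 spanned 2.29 CPM in O1 to 39.6 CPM in OA1, and Cdc25c, the phosphatase that activates Cdk1, spanned 0.572 CPM in O1 to 12.3 CPM in OA1.

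The mitotic kinases and the genes that end mitosis were low in O1 and high in OA1. Plk1, the polo kinase needed for the spindle and for cell separation, had 49.4, 37.4 and 42.6 CPM in OAC, 71.2, 64.1 and 34.3 CPM in OA, 3.56, 28.9 and 23.4 CPM in O, 46.3, 20.6 and 36.7 CPM in A, 27.6 CPM in OC3 and 26.8 CPM in AC3. Its O1 value (2.69 to 4.62 CPM, exact Poisson 95% interval) lay below 20.6 CPM, the next lowest, and both OA single clones lay above every other library. Aurkb, the kinase of the chromosomal passenger complex, had 16.2, 13.3 and 22.4 CPM in OAC, 39.9, 22.7 and 16.2 CPM in OA, 1.59, 25.2 and 16 CPM in O, 24.9, 15.1 and 18.5 CPM in A, 19.05 CPM in OC3 and 15.5 CPM in AC3. Cdc20, which activates the ubiquitin ligase APC/C to end mitosis, had 53.4, 64.4 and 66.8 CPM in OAC, 81.3, 76.2 and 60.9 CPM in OA, 14.6, 66.4 and 53.2 CPM in O, 58, 30.8 and 60.5 CPM in A, 53.8 CPM in OC3 and 36.9 CPM in AC3. Aurka, the spindle pole kinase, spanned 3.63 CPM in O1 to 58.7 CPM in OA1, and its activator Tpx2 spanned 7.25 CPM in O1 to 148 CPM in OA1. Ube2c, the ubiquitin carrier of APC/C, spanned 2.61 CPM in O1 to 59.6 CPM in OA1, and the passenger Birc5 (survivin) spanned 3.18 CPM in O1 to 64.3 CPM in OA1.

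Some members split the libraries in another way. Top2a, which untangles DNA, had 59.3, 46.1 and 259 CPM in OAC, 273, 8.14 and 127 CPM in OA, 3.94, 281 and 142 CPM in O, 154, 95.6 and 94.3 CPM in A, 235 CPM in OC3 and 184 CPM in AC3. Mki67, which encodes the proliferation antigen Ki-67, had 8.55, 7.66 and 335 CPM in OAC, 115, 1.61 and 86.2 CPM in OA, 0.318, 142 and 90.7 CPM in O, 44.04, 43.9 and 56.1 CPM in A, 154 CPM in OC3 and 221 CPM in AC3. Cenpe, a kinetochore motor, had 2.51, 2.01 and 72.99 CPM in OAC, 23.1, 0.482 and 37.1 CPM in OA, 0.445, 85.9 and 49.8 CPM in O, 6.16, 10.6 and 28.3 CPM in A, 79.4 CPM in OC3 and 63.9 CPM in AC3. OAC1, OAC2, OA2 and O1 were the 4 lowest libraries for these 3 genes and for 6 other members (Ttk, Ccne2, Nusap1, Bub1, Pola1 and Cenpf), 9 of 49 in all, against 10.4% of all tested genes. These 9 have exonic lengths of 2904 to 11368 bases and GC contents of 38.9% to 47.5%. OA2 was not low for Plk1, Cdc20 or Aurkb. Cenpf, a kinetochore protein, spanned 0.254 CPM in O1 to 92.8 CPM in OAC3, with 1.45 CPM in OAC1, 2.07 CPM in OAC2 and 0.428 CPM in OA2. Cenpe, Cenpf and Mki67 were the 3 members with the highest SD, at 2.61, 2.80 and 2.81. Cenpa, the histone that marks centromeres, spanned 6.23 CPM in O1 to 46.4 CPM in OA1.

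Of the spindle checkpoint genes, Bub1b and Mad2l1 spanned 5.85 CPM in O1 to 95.5 CPM in OA1 for Bub1b and 3.88 CPM in O1 to 36.7 CPM in OA1 for Mad2l1. Bub1 rested on 1 read in O1, and its highest value was 21.1 CPM in OAC3. Ttk was lowest in OA2, with no read (3 counts there come to 0.161 CPM), and had 0.382 CPM (6 reads) in O1. Of the spindle motors and bundlers, Kif11 spanned 0.445 CPM in O1 to 65.8 CPM in OAC3, Kif20a 10.7 CPM in O1 to 115 CPM in OA1, Kif23 0.318 CPM in O1 to 39.5 CPM in OAC3 and Nusap1 0.0636 CPM in O1 to 24.6 CPM in OC3.

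**Figure D2:**
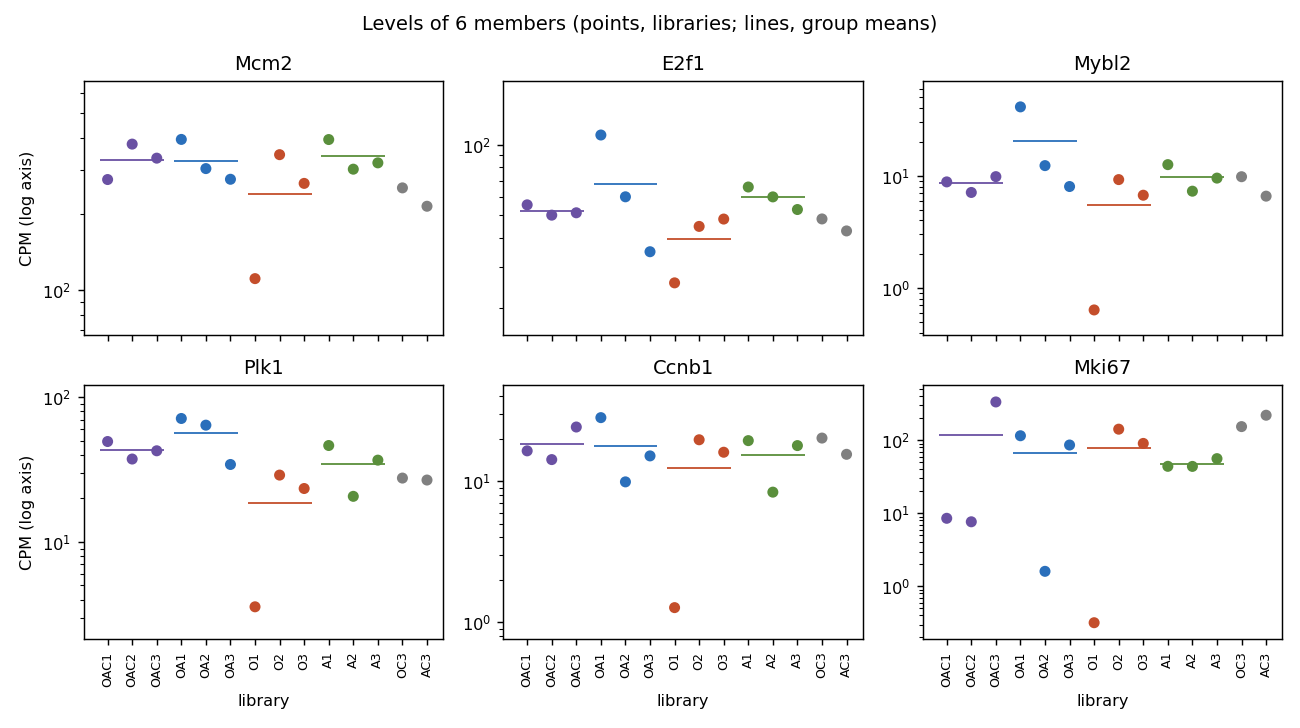
CPM on a log axis (y) of 6 members in the 14 libraries (x), where points are libraries, lines are group means and colours mark the groups. O1 is the lowest library for all 6 genes, and OA2 is low for Mki67 (1.61 CPM) but not for Plk1 (64.1 CPM).

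O1 was the lowest library for 45 of the 49 members (91.8%), and for 15.1% of all tested genes. It was lowest for 26 of 27 mitotic members and 19 of 22 S-phase members. A log2 deviation, used from here on, is log2 CPM with a prior count of 2 minus the gene's own mean over the 14 libraries, a scale that understates the change of low genes. In O1, 27 of 27 mitotic members and 15 of 22 S-phase members lay more than 1 log2 unit below that mean (42 of 49, 85.7%), against 22.7% of all tested genes. The median log2 deviation in O1 was -3.20 over the mitotic members (range -6.49 to -1.33), -1.56 over the S-phase members (range -5.65 to -0.37) and -0.05 over all tested genes.

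The GC trend of O1 stands beside these values. The quintile of tested genes with the lowest GC content had a median log2 deviation of -1.23 in O1, and that with the highest 0.45. The 8 mitotic members of high GC content, Plk1, Mybl2, Cdc20, Foxm1, Ube2c, Cenpa, Aurkb and Aurka, had a median of -2.77, those of middle GC content -3.08 and those of low GC content -4.86. The S-phase medians in O1 were -1.29 at high, -2.66 at middle and -1.55 at low GC content. With the GC offset the medians in O1 were -3.04 for the mitotic and -1.64 for the S-phase members, and with a GC and length offset they were -3.04 and -1.64. At low GC content the GC offset gave -3.54 for the mitotic and -0.68 for the S-phase members. Rrm1, Rfc4 and Pcna then lay at 0.72, 0.33 and -0.29 in O1, against -0.37, -0.49 and -1.55 without it. The other O libraries did not share the shift, with mitotic medians of 0.65 in O2 and 0.07 in O3.

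**Figure D3:**
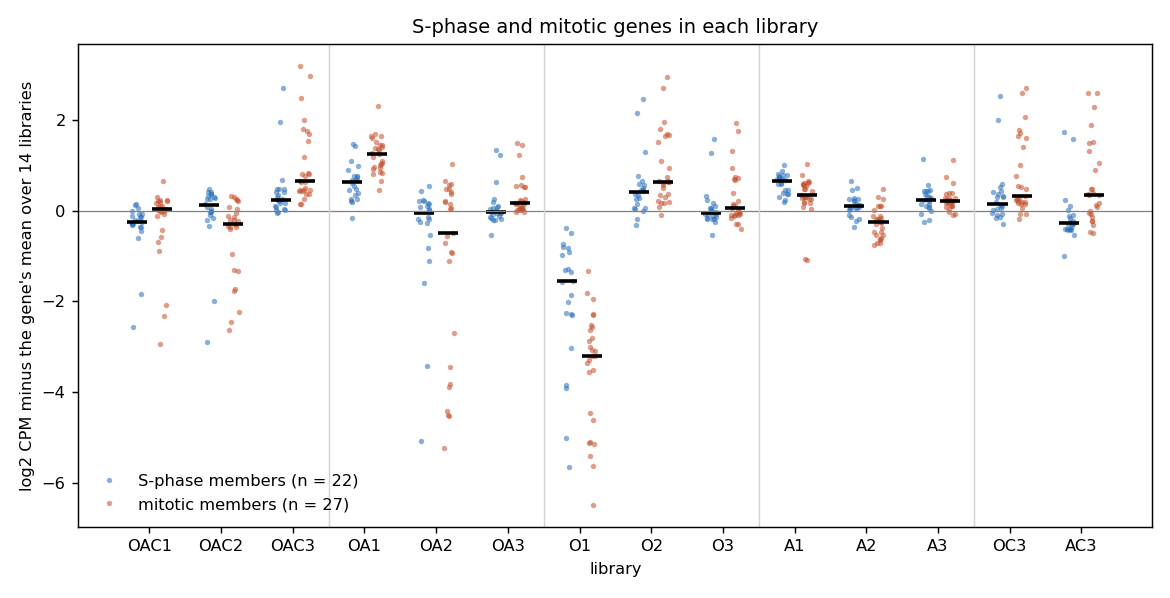
Log2 CPM minus the gene's mean over 14 libraries (y axis) for 22 S-phase members and 27 mitotic members in each library (x axis), where points are genes and black lines are medians. In O1 the medians are -1.56 for the S-phase and -3.20 for the mitotic members, and in OA1 they are 0.64 and 1.25.

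OA1 was the highest library for 25 of the 49 members (51.02%), and for 7.06% of all tested genes. These were 17 of 27 mitotic members and 8 of 22 S-phase members, and they included all 4 transcription factors, all 3 mitotic kinases and both APC/C genes. In OA1, 19 of 27 mitotic members and 3 of 22 S-phase members lay more than 1 log2 unit above their mean, against 6.86% of all tested genes. The median log2 deviation was 1.25 for the mitotic and 0.64 for the S-phase members, and with the GC offset it was 1.25 and 0.60. The S-phase median of A1 was 0.65, or 0.59 with the GC offset, beside a mitotic median of 0.36. A2 showed the reverse sign between the sets, 0.10 for S-phase and -0.24 for mitotic members.

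In OA2 the members of low and of high GC content lay apart. Its 10 mitotic members of low GC content (38.9% to 46.0%) had a median log2 deviation of -3.63, and the 8 of high GC content (50.6% to 58.1% over all high members) had 0.52. With the GC offset these medians were -1.28 and 0.24. Single members departed from these medians. Mki67 (47.5% GC) lay at -4.43 in OA2, and at -4.00 with the GC offset. Rrm1 (43.4% GC), Pcna (42.4% GC) and Rfc4 (44.6% GC) lay at 0.21, -0.52 and -0.19 in OA2. With the GC offset they lay well above their mean there, at 2.05, 1.61 and 1.20. The part of GC content in these values was not tested. Over all tested genes in OA2 the quintile lowest in GC content stood at -2.03 and the highest at 0.39. OA2 held 8.14 CPM of Top2a and 0.482 CPM of Cenpe (9 reads) beside 64.1 CPM of Plk1 and 76.2 CPM of Cdc20.

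The ratio of Mki67 to Plk1 varied widely between libraries, and it was 0.173 in OAC1, 0.205 in OAC2, 0.0251 in OA2 and 0.0893 in O1, against 7.86 in OAC3 and 8.24 in AC3. Mki67 and Cenpf have exonic lengths of 10075 and 11368 bases and GC contents of 47.5% and 45.3%, against a median length of 3463 bases over all tested genes. With the GC and length offset, Mki67 still lay at a log2 deviation of -2.07 in OAC1 and -2.16 in OAC2, and Cenpf at -2.85 and -2.22. The part of GC content and length in the differences between libraries beyond what the offsets remove was not tested.

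**Figure D4:**
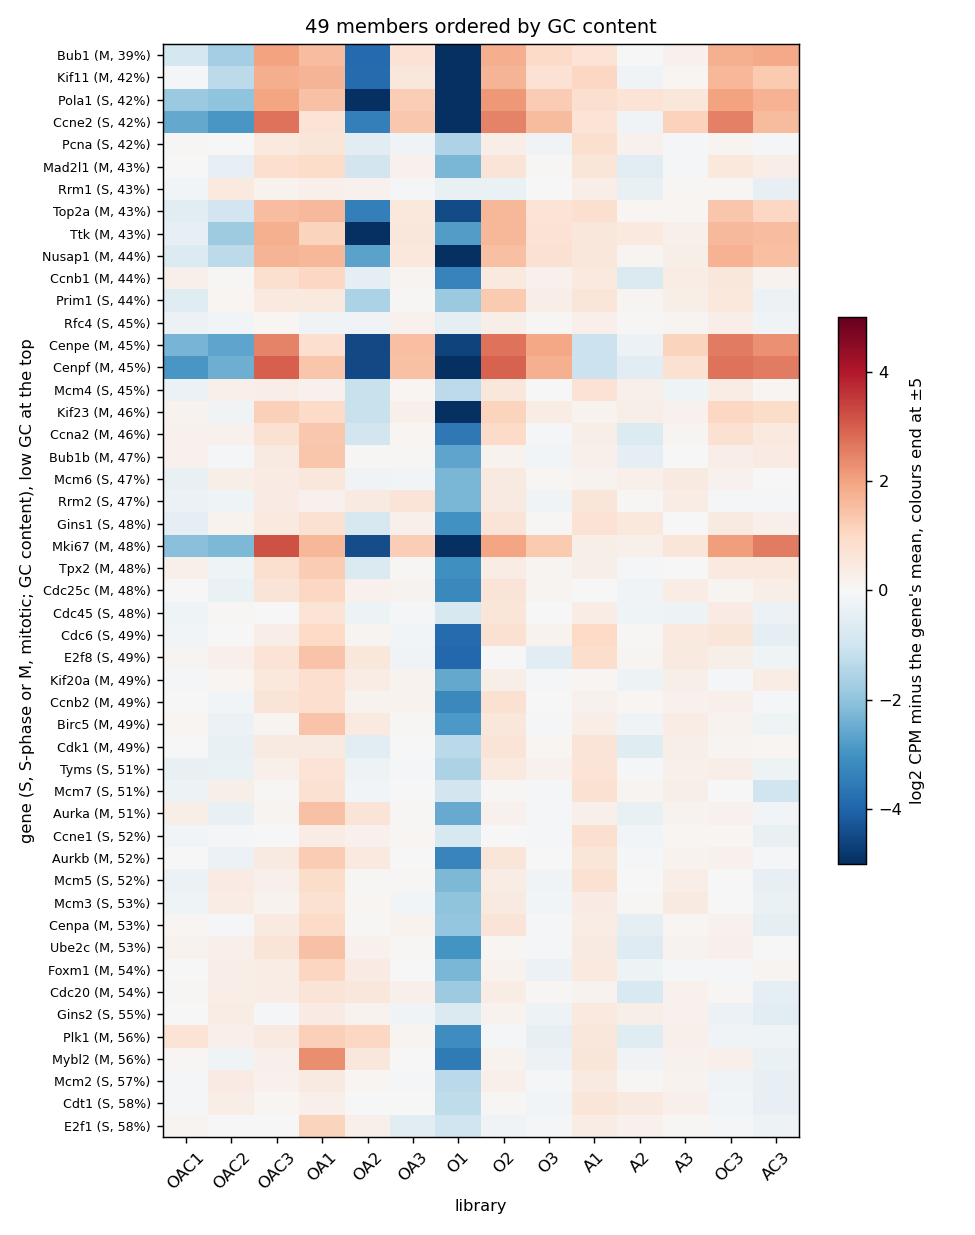
Log2 CPM minus the gene's mean over 14 libraries (colour, ending at ±5) for the 49 members, ordered by GC content from low at the top to high at the bottom (y axis), in each library (x axis). In O1, 42 of the 49 members lie more than 1 log2 unit below their mean, at low and high GC content, whereas OA2, OAC1 and OAC2 are low mainly at genes near the top and at Mki67.

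The groups were compared in 7 ways by potency, and pools were compared with single clones. A log2 fold change is edgeR's estimate with its standard error, positive where the group named before the other is higher. A gene was called at a false discovery rate (FDR) of 0.05 by edgeR's quasi-likelihood F test over 13896 genes, each group with 3 libraries. The comparisons share groups and libraries and are not independent of each other. Multipotent libraries are OAC and OA, and unipotent libraries are O and A. In none of the 8 comparisons was a member called by edgeR, or by DESeq2.

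Osteogenic against adipogenic clones gave the lowest FDR of the potency comparisons. Of 49 members, 0 were called by edgeR, against 0.0072% of all tested genes, and 0 by DESeq2, against 3.03%. At an unadjusted p under 0.05 stood 1 member, Cdt1, against 9.89% of all genes. Cdt1 had a mean of 49.2 ± 20.98 CPM across the O libraries and 84.7 ± 10.1 CPM across the A libraries (SD, n = 3 each), a log2 fold change of -0.78 ± 0.30 (SE, edgeR FDR 0.433). Gins2 followed at 40.9 ± 12.4 CPM across the O libraries and 60.1 ± 5.67 CPM across the A libraries, -0.56 ± 0.26 (FDR 0.518). Mcm7 had 128 ± 41.5 CPM across the O libraries and 206 ± 48.4 CPM across the A libraries, -0.69 ± 0.32 (FDR 0.527). For 5 members (Cdt1, E2f1, Mcm7, Gins2 and E2f8) all O libraries lay below all A libraries, a share near the 8.28% of all genes that did so, and for 0 did all lie above, against 7.36%. The median log2 fold change was -0.36 over the members, -0.55 over the S-phase and -0.17 over the mitotic ones, against 0.03 over all genes. Without O1 the median over the members was 0.08, and without O2 it was -0.82.

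The log2 fold change of osteo-adipogenic over osteogenic clones was positive for 37 of the 49 members, without a call. This counts the sign of the estimate alone, and the share of all genes with a positive sign was not taken. Of 49 members, 0 were called by edgeR, against 0% of all genes, and 0 by DESeq2, against 0.303%. At an unadjusted p under 0.05 stood 2 members, against 5.43% of all genes. Plk1 had a mean of 56.5 ± 19.6 CPM across the OA libraries and 18.6 ± 13.3 CPM across the O libraries (SD, n = 3 each), a log2 fold change of 1.60 ± 0.62 (edgeR FDR 0.894). Mybl2 had 20.5 ± 18.01 CPM across the OA libraries and 5.53 ± 4.42 CPM across the O libraries, 1.88 ± 0.82 (FDR 0.912). E2f1 had 68.2 ± 38.2 CPM across the OA libraries and 39.5 ± 12.1 CPM across the O libraries, 0.79 ± 0.37 (FDR 0.913). All OA libraries lay above all O libraries for Ccne1 and Plk1, 2 of 49, against 4.56% of all genes, and below for 0, against 3.63%. The median over the members was 0.43, against -0.08 over all genes. It was 0.03 without O1 and 0.04 without OA1.

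Against the adipogenic clones, the osteo-adipogenic ones differed in sign between the sets. The median log2 fold change was 0.43 over the mitotic and -0.15 over the S-phase members, 0.20 over all members and -0.03 over all genes. Of 49 members, 0 were called by edgeR (background 0.0072%), 0 by DESeq2 (0.937%) and 0 stood at an unadjusted p under 0.05 (5.27%). Aurka had a mean of 38.1 ± 18.8 CPM across the OA libraries and 22 ± 4.97 CPM across the A libraries (SD, n = 3 each), a log2 fold change of 0.79 ± 0.59 (edgeR FDR 1.00). Mybl2 had 1.06 ± 0.80, and Cdc20 had 0.55 ± 0.46. Cdc20, at 72.8 ± 10.6 CPM in OA and 49.7 ± 16.5 CPM in A, was the 1 member whose OA libraries all lay above the A libraries, against 5.16% of all genes, and for 0 did all lie below, against 5.81%. Without OA1 the median over the members was -0.29.

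Tripotent against osteo-adipogenic clones was the comparison with the fewest genes of any kind at an unadjusted p under 0.05 (1.17%). Of 49 members, 0 were called by edgeR (0% of all genes), 0 by DESeq2 (0%) and 0 stood at an unadjusted p under 0.05. Mybl2 had a mean of 8.58 ± 1.38 CPM across the OAC libraries and 20.5 ± 18.01 CPM across the OA libraries (SD, n = 3 each), a log2 fold change of -1.25 ± 0.81 (edgeR FDR 1.00). Aurka had -0.78 ± 0.59 and Birc5 -0.77 ± 0.66. The highest OA library for both Mybl2 and Aurka was OA1, which held 41.1 CPM of Mybl2 and 58.7 CPM of Aurka. All OAC libraries lay below all OA libraries for Ccne1, at 18.7 ± 0.723 CPM in OAC and 23.1 ± 2.21 CPM in OA, against 2.82% of all genes, and above for 0 members, against 2.11%. The median over the members was -0.16, against 0.00 over all genes, and it was 0.15 without OA1 and 0.01 without OAC1.

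Tripotent against osteogenic clones had 0 members called by edgeR (0% of all genes), 0 by DESeq2 (0.728%) and 0 at an unadjusted p under 0.05 (6.02%). Plk1 had a mean of 43.1 ± 6.02 CPM across the OAC libraries and 18.6 ± 13.3 CPM across the O libraries (SD, n = 3 each), a log2 fold change of 1.21 ± 0.61 (edgeR FDR 0.855). Rrm1 had 0.41 ± 0.23, and Cdt1 had 0.47 ± 0.30. All OAC libraries lay above all O libraries for 4 members, Ube2c, E2f1, Plk1 and E2f8, a share near the 5.74% of all genes, and below for 0 members, against 5.79%. The median over the members was 0.30, against -0.06 over all genes, and it was -0.14 without O1.

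Tripotent against adipogenic clones gave the median nearest to 0. The median log2 fold change was 0.01, against -0.03 over all genes, with -0.20 over the S-phase and 0.19 over the mitotic members. Of 49 members, 0 were called by edgeR (0.0072% of all genes), 0 by DESeq2 (0.411%) and 0 stood at an unadjusted p under 0.05 (3.58%). Ccne1 had a mean of 18.7 ± 0.723 CPM across the OAC libraries and 24.4 ± 8.5 CPM across the A libraries (SD, n = 3 each), a log2 fold change of -0.38 ± 0.29 (edgeR FDR 1.00). Mcm7 had -0.39 ± 0.32 and Rfc4 -0.26 ± 0.25. For 0 members did the groups not overlap, against 4.79% of all genes higher and 6.02% lower. The median over the members was -0.30 without OAC3, -0.12 without A2 and -0.04 without A3.

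With multipotent set against unipotent libraries, 0 members were called by edgeR (0% of all genes) and 0 by DESeq2 (0.223%). Plk1 was the 1 member at an unadjusted p under 0.05 (4.86% of all genes), with a log2 fold change of 0.96 ± 0.43 (edgeR FDR 0.998). Its 6 multipotent libraries held 34.3 to 71.2 CPM and its 6 unipotent libraries 3.56 to 46.3 CPM, so the groups overlapped. Foxm1 had 0.61 ± 0.36 and Ube2c 0.76 ± 0.47. The groups overlapped for all 49 members, against 0.108% of all genes wholly higher and 0.18% wholly lower. The median over the members was 0.19, against -0.04 over all genes, and it was -0.04 without O1.

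The 4 pools of the OAC, OA, O and A groups were also set against the 8 single clones of those groups, with potency in the model. Of 49 members, 0 were called by edgeR (0% of all genes), 0 by DESeq2 (4.48%) and 0 stood at an unadjusted p under 0.05 (11.3%). Cenpe, Ccne2 and Cenpf had the lowest p, with log2 fold changes of 2.35 ± 1.29, 2.20 ± 1.43 and 2.25 ± 1.53 (edgeR FDR 0.500, 0.543 and 0.547). The pools held 28.3 to 73.0 CPM of Cenpe, and the single clones 0.445 to 85.9 CPM, the highest of which was O2. When O2 was left out, DESeq2 called 5 members higher in pools (Cenpe, Cenpf, Ccne2, Mki67 and Pola1), and when OA1 was left out it called 3 (Cenpf, Cenpe and Mki67), while edgeR called 0 in each case. Without O2 DESeq2 called 15.2% of all genes in either direction and 7.13% higher in pools, near the members' 10.2%. Without OA1 it called 4.94% in either direction and 1.82% higher in pools, beside 6.12% of the members. The DESeq2 tests without a library were added after the data were seen. Cenpe, Cenpf, Ccne2, Mki67 and Pola1 have GC contents of 41.8% to 47.5%. In the pools OAC3, OA3, O3 and A3 the deviations of all genes fell as GC content rose (rho -0.54, -0.42, -0.43 and -0.19). Among the single clones they fell in O2 (-0.47) and A2 (-0.13), and rose in the others (0.03 in A1 to 0.65 in OA2). The part of GC content in the pool comparison was not tested. The groups overlapped for all 49 members, against 0.619% of all genes wholly higher and 2.73% wholly lower. The median over the members was 0.15, against 0.03 over all genes, and it was -0.03 without O1 and -0.05 without OAC3.

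**Figure D5:**
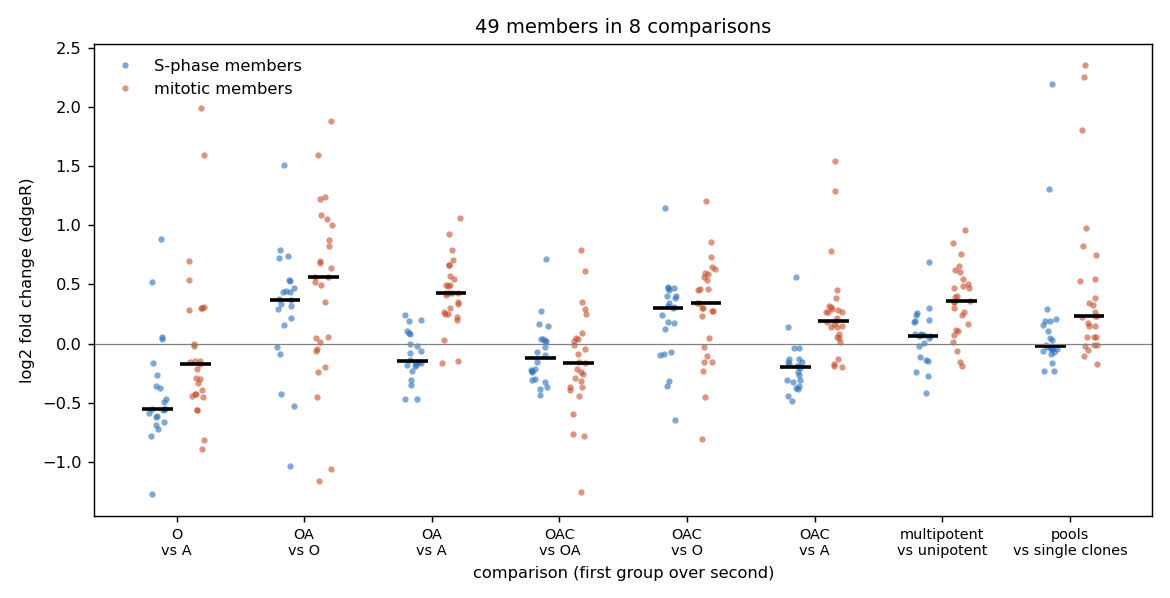
Log2 fold change from edgeR (y axis) of 22 S-phase and 27 mitotic members in 8 comparisons (x axis, first group over second), where points are genes and black lines are medians. The S-phase and mitotic medians are -0.55 and -0.17 for O vs A and -0.15 and 0.43 for OA vs A, and no member passed an FDR of 0.05.

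O1 was also the lowest library for most replication and mitosis genes outside the 49. Of 43 other origin and replication fork genes, 44 tested of 45 other mitotic genes, 17 E2F, RB and MuvB genes, 7 CDK inhibitors and 8 G1 cyclins and kinases, edgeR called 0 in any of the 8 comparisons. In O1 the median log2 deviation was -2.84 over the other mitotic genes and -1.52 over the other origin and fork genes, and O1 was the lowest library for 35 of 44 and 34 of 43. With the GC offset these medians in O1 were -2.37 and -1.36. In OA1 the medians were 0.97 for the other mitotic and 0.49 for the other origin and fork genes, beside 0.86 and 0.34 in OAC3 and 0.70 and 0.52 in O2, so that OA1 did not have the highest median of the origin and fork genes.

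Of the 7 measured inhibitors of the cyclin-dependent kinases, 3 had their highest level in O1, which was the highest library for 21.7% of all tested genes. Cdkn1a, which encodes the p53-induced inhibitor p21, was at 2147 CPM in O1, against 229 to 907 CPM in the other 13 libraries. Cdkn2a, the locus of p16 and Arf, was at 1058 CPM in O1, against 283 to 768 CPM, and Cdkn2b, which encodes p15, at 288 CPM, against 75.1 to 205 CPM. With the GC offset O1 was still the highest library for these 3 genes, at log2 deviations of 1.28 for Cdkn1a, 0.62 for Cdkn2a and 0.48 for Cdkn2b, but the next highest library stood at 0.59 for Cdkn2a and 0.37 for Cdkn2b. It held no read of Cdkn1c, against 0.0405 to 29.9 CPM elsewhere, and its 36.4 CPM of Cdkn1b and 52.5 CPM of Cdkn2c lay within the range of the others. Of 8 G1 cyclins and kinases, Cdc25a, a phosphatase that activates Cdk2, was lowest in O1 at 7.82 CPM, against 18.4 to 24.9 CPM elsewhere. Cdk2 was lowest there too, at 39.6 CPM, against 45.2 to 87.1 CPM. Of the D-type cyclins, which act earlier in the cycle with Cdk4 and Cdk6, Ccnd3 was highest in O1 at 147 CPM, against 57.7 to 115 CPM elsewhere, and Ccnd1 (204 CPM) and Ccnd2 (266 CPM) lay within the range of the others. With the GC offset Cdc25a and Cdk2 were still lowest in O1 (-1.30 and -0.35) and Ccnd3 highest (0.43). The next lowest library for Cdk2 then stood at -0.34. Cdk4 was highest in O1 at 597 CPM, against 278 to 552 CPM elsewhere. With the GC offset Cdk4 stood at 0.16 in O1 and was highest in OAC2, at 0.30.

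Markers of other cells were also read in O1. The summed level of 6 blood cell markers was 48.7 CPM in O1, against 5.42 to 17.4 CPM elsewhere, of which Lyz2 made 37.2 CPM, while Ptprc and Hba-a1 were at 0. The summed level of 12 stromal markers in O1 was 57048 CPM, the highest of the 14 libraries. Col1a1 made 55512 CPM of it and was alone in being highest in O1. Pdgfra (23.1 CPM), Pdgfrb (297 CPM) and Lepr (0 CPM) were lowest there. The summed level of 5 endothelial markers in O1 was 0.827 CPM, with Cdh5 and Emcn at 0. By group, the stromal sum was 26947 to 41836 CPM in OAC, 30654 to 52725 CPM in OA, 35428 to 57048 CPM in O and 11450.4 to 15191 CPM in A. Col1a1 was at 4956 to 11231 CPM in A, and Cxcl12 had its highest value, 5125 CPM, in A2. The blood cell sum was 6.12 to 16.6 CPM in OAC, 5.42 to 8.26 CPM in OA, 7.30 to 48.7 CPM in O and 10.2 to 17.4 CPM in A. The endothelial sum was 1.76 to 4.50 CPM in OAC, 0.589 to 3.45 CPM in OA, 0.827 to 6.56 CPM in O and 3.16 to 4.19 CPM in A. The part of these markers in the low values of the members in O1 was not tested.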

How the data were processed

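The authors deposited a table of raw read counts (whole numbers) in which each library has its column, beside the number of exons and the exonic length of every gene. Per the labels' protocols, mRNA was selected with oligo(dT) beads from total RNA for strand-specific libraries. Build mm9 and the tools bedtools 2.11 and CASAVA 1.8.0 are named, per the submitters' processing notes. The aligner, the read filters and whether counting used strand were not given in the sources used here, so counts of overlapping or antisense genes are uncertain.

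Counts were scaled to CPM with TMM factors. The test was edgeR 4.0.16 (quasi-likelihood F test, robust, 6 group means, R 4.3.3) on genes reaching 1 CPM in 3 or more libraries, adjusted by Benjamini-Hochberg over 13896 genes within each of 8 comparisons. Standard errors were derived from the fold change and the F statistic. DESeq2 1.42.0 was the second test. On data simulated for O vs A with edgeR's dispersions, the log2 fold changes of both correlated with the known changes. DESeq2 made more false calls there than its threshold allows, and edgeR missed most of the smaller changes. For pools against single clones the model held potency and library type, and rested on 12 libraries. Other alternatives were RLE size factors, no filter, GC and length offsets, a replicate block, and leaving out O1 and OA2 together or each of the 12 libraries in turn. Depth ran from 16888190 to 26076539 counts per library, and intervals are exact Poisson intervals at 95% that cover counting error only. Libraries were grouped by the potency in their labels.

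Genes named in full were 20 members covering each role, the 3 members with the lowest p in each comparison, and the 3 with the lowest and the 3 with the highest SD of log2 CPM. The members, the lists and the rule were chosen with earlier results of these data known. GC content is the median over the GENCODE M21 transcripts of a gene. Coordinates are given for RefSeq promoter windows on GRCm38.p6 alone. No window was used for Aurkb, Tpx2, Kif20a, Cdc25c, Gins2, Foxm1, Gins1, Mcm4, Ccna2 and Ccne2.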

Additional observations from a re-analysis of the deposited data

How the results depend on the processing

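No setting called a member by edgeR. The count of members called by DESeq2 for pools against single clones was 3 without OA1 (1.82% of all genes called higher) and 5 without O2 (7.13%), and ran from 0 to 5 over the 12 libraries left out. The median log2 fold change of the members ran from -0.82 to 0.08 in O vs A, 0.03 to 0.90 in OA vs O, -0.29 to 0.42 for OA vs A, -0.42 to 0.15 for OAC vs OA, -0.14 to 0.89 for OAC vs O, -0.30 to 0.14 for OAC vs A, -0.04 to 0.51 for multipotent vs unipotent and -0.05 to 0.49 for pools vs single clones, as each library was left out of edgeR. Without OA2 and O1 together it was 0.06 for O vs A, -0.11 for OAC vs O and -0.13 for pools. With RLE factors, no filter or GC and length offsets it stayed on the side of 0 it had with TMM. With an E2F form preceded by another T, 7 S-phase and 1 mitotic window matched. Depth limits the lowest values of O1, which rest on 10 reads for Mybl2, 5 for Mki67 and 1 for Bub1.

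The labels do not say that a number marks a shared animal or batch. Deviations here are log2 CPM minus the gene's mean over the group's 3 libraries. They sum to 0 within a group, so the medians that follow are not independent. The correlations of same-numbered libraries were -0.58 to 0.76 over 18 pairs (median 0.29, against -0.13 over 36 pairs of different number). They passed 0.1 in 11 pairs, among them all 6 pairs of pools (number 3, 0.29 to 0.76), 4 of 6 pairs of number 1 and 1 of 6 of number 2, and 7 of 12 libraries correlated best with their own number. Since not every pair passed 0.1, the numbers were not taken to pair the libraries, a rule that does not show that they are unpaired. With the replicate number as a block, 0 members were called in the 7 potency comparisons, and the median was -0.39 in O vs A, 0.49 in OA vs O, 0.12 for OA vs A, -0.27 for OAC vs OA, 0.34 for OAC vs O, -0.14 for OAC vs A and 0.19 for multipotent vs unipotent. With the block and a GC offset together it was -0.40, 0.56, 0.33, -0.31, 0.35, -0.09 and 0.21 in the same order, with 0 members called.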

Other observations

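Zwint, which encodes a kinetochore protein and is not among the 49 genes, was the only gene of the other replication, mitosis and cell cycle lists called by DESeq2 in any of the 8 comparisons. It had 105, 97.7 and 91.3 CPM in OAC1, OAC2 and OAC3, 90.4, 86.4 and 103 CPM in OA1, OA2 and OA3, 129, 132 and 139 CPM in the O libraries (1, 2 and 3), and 145, 181 and 179.6 CPM in A1, A2 and A3. The 6 multipotent libraries lay below the 6 unipotent ones, and O1 was not low. The log2 fold change of multipotent over unipotent libraries was -0.65 ± 0.11 by edgeR (FDR 0.854) and -0.63 ± 0.10 by DESeq2 (adjusted p 1.12e-06). DESeq2 also called it lower in OA than A (adjusted p 6.12e-06), in OAC than A (0.000435) and in OA than O (0.0489), where edgeR gave FDRs of 0.382, 1.00 and 0.851. These are calls of DESeq2 alone. On simulated data, made for O vs A with edgeR's dispersions, DESeq2 made more false calls than its threshold allows. Its false calls in the comparisons given here for Zwint were not tested.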
